A study of Mus musculus with 30 samples.

Results

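The insulin-like growth factor (IGF) axis was followed here as 10 genes, the ligand gene Igf1, the receptor genes Igf1r and Igf2r, and the genes of the IGF binding proteins, Igfbp1 to Igfbp7. All 10 were found by symbol among the 41128 genes of both deposited count tables, one of mouse aorta and one of mouse kidney. The mice differed in genotype and diet. KO mice lacked the epidermal growth factor receptor (EGFR) in vascular smooth muscle cells, through loxP-flanked Egfr alleles (Egfr flox/flox) and a tamoxifen-inducible Cre recombinase driven by the smooth muscle myosin heavy chain promoter (Smmhc-Cre). WT mice had the Cre but no loxP-flanked allele. The labels give the strain as C57Bl6J, while the protocol names C57BL/6N for the Cre line. Because the Cre transgene lies on the Y chromosome the mice were male. Both genotypes received tamoxifen, 1 mg per day for 5 days. Feeding with a standard fat diet (SFD) or a high fat diet (HFD) began 7 days later, at 6 weeks of age, and lasted 18 weeks. Aortae, freed of adjacent fat, came from 3 WT-SFD, 4 WT-HFD, 3 KO-SFD and 4 KO-HFD mice. Kidneys came from 4 mice per group. Mice WT-SFD-1309, KO-SFD-1319 and KO-HFD-1504 gave both tissues, by the numbers in their labels. RNA of whole tissue was sequenced after ribosomal RNA removal, and each library is 1 tissue sample of 1 mouse. Total counts ran from 6403699 to 13052870 per aorta (median 8998366) and from 16354880 to 28331314 per kidney (median 19544128). The tissues were normalised and tested apart.

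IGF-1 and IGF-2 are small secreted proteins that signal through the IGF-1 receptor, a tyrosine kinase close to the insulin receptor. The product of Igf2r, which is also the mannose 6-phosphate receptor, has no kinase and carries IGF-2 to the lysosome. Most IGF outside cells is held by binding proteins, which lengthen its life in blood, keep it from its receptor or concentrate it on matrix, and proteases release it again. Liver, under growth hormone, makes most circulating IGF-1, whereas arteries and kidney make their own binding proteins. In the vessel wall IGF-1 is known as a growth and survival factor of smooth muscle cells. In the kidney the axis is known for its effects on filtration, tubular growth and phosphate handling.

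Binding protein genes lie as close neighbours in 2 places. Igfbp2 (chr1:72824503-72852474, plus strand, GRCm38) and Igfbp5 (chr1:72857932-72874884, minus strand) face each other with 5457 bases between them. Igfbp1 (chr11:7197782-7202546, plus strand) and Igfbp3 (chr11:7206086-7213923, minus strand) face each other over 3539 bases, and in neither pair did another annotated gene lie between. Igfbp4 is on the same chromosome as the latter pair but far from it (chr11:99041244-99054392, plus strand). Igf1 is at chr10:87858265-87937042, Igf1r at chr7:67952827-68233668, Igf2r at chr17:12682406-12769664, Igfbp6 at chr15:102144362-102149511 and Igfbp7 at chr5:77349240-77408041. Of the Igfbp7 exon bases, 85 (7.03%) are shared with Polr2b on the other strand. Whether counting used strand is not given in the sources used here, so a part of the Igfbp7 count is uncertain. No other member shared exon bases with another gene.

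Promoters are shown for the neighbours Igfbp1 and Igfbp3, whose levels differed most between the tissues, and for Igfbp4, which with Igfbp3 passed the diet test in the kidney. Each run is the 250 bases before the RefSeq start (GRCm38.p6), 5′ to 3′ on the gene's own strand, at chr11:7197537-7197786 for Igfbp1, chr11:7213924-7214173 for Igfbp3 and chr11:99040994-99041243 for Igfbp4. Capitals mark matches to 5 motifs searched on both strands.
Igfbp1: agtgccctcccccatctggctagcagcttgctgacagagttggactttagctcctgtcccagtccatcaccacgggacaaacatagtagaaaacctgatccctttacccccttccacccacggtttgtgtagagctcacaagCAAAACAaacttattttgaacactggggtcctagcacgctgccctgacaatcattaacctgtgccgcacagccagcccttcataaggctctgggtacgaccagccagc
Igfbp3: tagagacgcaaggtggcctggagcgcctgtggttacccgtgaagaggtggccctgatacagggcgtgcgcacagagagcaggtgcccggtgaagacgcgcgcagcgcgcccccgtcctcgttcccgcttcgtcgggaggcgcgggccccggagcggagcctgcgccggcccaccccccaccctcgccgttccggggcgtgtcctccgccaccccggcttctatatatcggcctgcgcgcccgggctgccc
Igfbp4: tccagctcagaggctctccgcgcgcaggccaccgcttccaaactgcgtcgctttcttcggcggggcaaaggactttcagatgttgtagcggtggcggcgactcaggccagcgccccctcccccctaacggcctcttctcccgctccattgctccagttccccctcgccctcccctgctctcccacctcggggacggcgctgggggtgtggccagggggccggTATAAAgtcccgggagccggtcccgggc
Igfbp1 held CAAAACA, the core of the insulin response element known in IGF binding protein promoters, 108 bases before its start. Igfbp4 held TATAAA, the TATA box, 28 bases before its start. Among 32851 mouse promoters of the same length, 5.56% held CAAAACA and 12.4% held TATAAA. Igfbp3 held none of the 5, which says only that these letters are not in this window. The other motifs were GGGCGG (GC box, in 32.7% of promoters), CCAAT (33.8%) and GTAAACA (FOXO core, 3.17%). TATAAA and CAAAACA do not overlap in these windows.

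The deleted gene was read first as a check of the labels. Levels are given as FPM, the count of a gene divided by the TMM-scaled sum of counts in tested genes and multiplied by 1e+06. Aortic Egfr was 46.7, 39.5 and 54.3 FPM in WT-SFD and 65.1, 57.0, 51.2 and 57.0 FPM in WT-HFD. In KO it was 26.8, 35.5 and 28.0 FPM on SFD and 27.5, 40.6, 39.7 and 33.4 FPM on HFD. Within each diet the KO and WT values did not overlap, the KO being lower. Over both diets the log2 difference of KO from WT was -0.67 (SE 0.11, edgeR quasi-likelihood test, adjusted p = 0.0141). The Cre leaves the gene in other cells of the wall. In whole kidney Egfr ran from 36.9 to 60.8 FPM, and KO did not stand apart from WT (log2 difference -0.00, SE 0.09, adjusted p = 0.999 by edgeR). The Cre acts there in vascular smooth muscle, a small part of the organ.

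The labelled tissues were also read against marker genes. Aortae were rich in Myh11 (4015 to 7283 FPM) and Acta2 (4235 to 8745 FPM), and kidneys in Slc34a1, the phosphate carrier of the proximal tubule (5895 to 10800 FPM), which was listed at 0 in 12 of 14 aortae. Tagln and Cnn1, also smooth muscle markers, had no count in any library of either tissue. They lie on chromosome 9, where no gene had a count, so they check nothing. All 8 adipocyte markers passed the filter in the aorta. Their sum was 3214 FPM in mouse WT-SFD-1309, 2567 FPM in mouse WT-SFD-1310, 1911 FPM in mouse KO-SFD-1319 and 581 FPM in mouse KO-SFD-1452. In the other 10 aortae it was 48.0 to 194 FPM. Fabp4 was the most abundant (25.9 to 1290 FPM), and Lep was at 0 in 1 library. Sums of the 5 brown adipocyte markers were 1160, 645, 558 and 256.5 FPM in the same 4 aortae, in that order. They were 9.85 to 60.0 FPM in the others. On SFD only mice WT-SFD-1445 and KO-SFD-1507 were without this excess. The diet comparison in the aorta therefore cannot be told apart from the amount of adipocyte RNA, except through the values below without these 4 aortae or with the marker mean as a covariate. The smooth muscle marker mean was lowest in 3 of these 4, at 10.9 (mouse WT-SFD-1309), 11.2 (mouse WT-SFD-1310) and 11.01 (mouse KO-SFD-1319) log2 CPM, against 11.4 to 11.7 in the others. In bulk samples such as these, fewer cells of a type and less RNA per cell cannot be told apart.

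Igfbp7, a low-affinity binder found in vessel walls, was the most abundant member in both tissues once levels were divided by exon length. It reached 566 ± 95.1 FPM per kb in the aorta (SD, n = 14) and 1753 ± 174 FPM per kb in the kidney (SD, n = 16). On this scale the aorta continued with Igfbp5, a binder that attaches to matrix (112 ± 22.8), Igfbp4, an inhibitory binder (51.7 ± 6.52), Igfbp6, which prefers IGF-2 (29.4 ± 6.94), and Igf2r (14.9 ± 1.67). Then came Igf1r (5.84 ± 0.83), Igfbp2 (3.95 ± 2.15), Igf1 (3.14 ± 0.75) and Igfbp3, the main carrier in blood (1.30 ± 1.14). Igfbp2 overlapped both its neighbours in this order and Igf1 overlapped Igfbp3, whereas the first 4 were apart by more than their SDs. Igfbp1, an acutely insulin-suppressed binder of liver, was nearly absent from the aorta: 11 of 14 libraries had a count of 0, which allows up to 0.282 to 0.433 FPM in those 11 (3 counts per library, counting error only). The other libraries held 3, 1 and 2 counts, in mice KO-SFD-1507, KO-HFD-1454 and KO-HFD-1504, and the gene did not pass the filter.

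**Figure D1:**
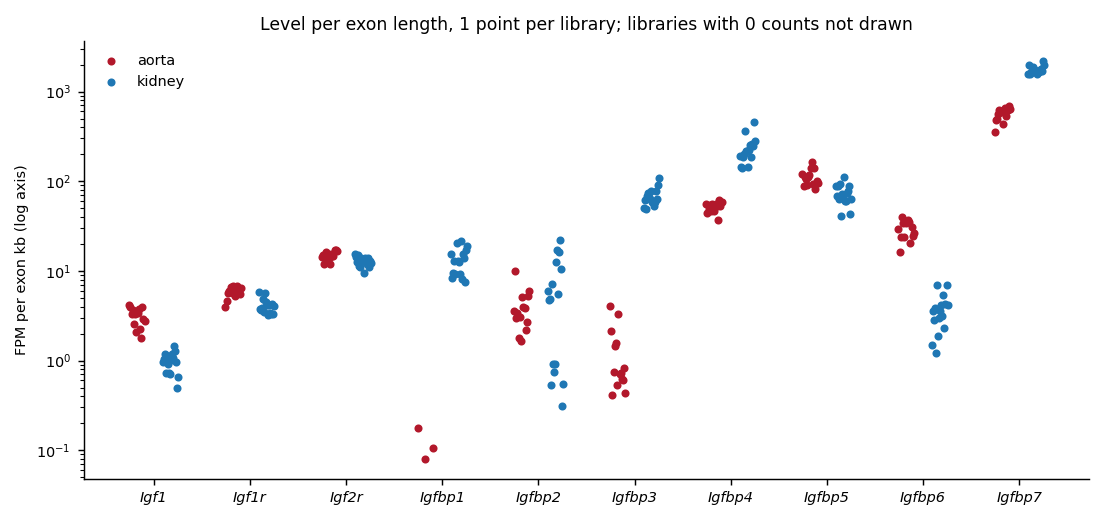
Level of the 10 genes in each library (1 point per library, aorta n = 14, kidney n = 16), in FPM per kilobase of exon on a log axis; libraries with no count are not drawn. Igfbp7 was at the top in both tissues. The kidney points of Igfbp1, Igfbp3, Igfbp4 and Igfbp7 all stood above the aorta points, and those of Igf1 and Igfbp6 all stood below. Points of the other genes overlapped between the tissues.

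The kidney order differed. Behind Igfbp7 stood Igfbp4 (232 ± 82.0 FPM per kb), then Igfbp5 (72.8 ± 18.5) and Igfbp3 (67.6 ± 15.6), which overlapped, then Igfbp1 (13.3 ± 4.49) and Igf2r (12.9 ± 1.58), which overlapped too. Igfbp2 (6.91 ± 6.87), Igf1r (4.11 ± 0.81) and Igfbp6 (3.68 ± 1.69) could not be ordered beyond their spread. Igf1 itself had the lowest mean, 0.97 ± 0.26 FPM per kb, although Igfbp2 lay below it in 4 kidneys. Of the summed per-length level of the 7 binding proteins, Igfbp7 made up 73.7% ± 4.89 in the aorta and 81.7% ± 2.1 in the kidney. Igfbp5 and Igfbp4 followed in the aorta with 14.9% and 6.85%, and Igfbp4 and Igfbp5 in the kidney with 10.6% and 3.48%. The tables were normalised separately, and the paper names different sequencing sites for aorta and kidney. A level set beside that of the other tissue is therefore a description only.

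Spread between libraries differed widely within the family. In the aorta the coefficient of variation was 87.9% for Igfbp3 and 54.5% for Igfbp2, beside a median of 21.8% over all tested genes. Igf2r (11.2%), Igfbp4 (12.6%) and Igf1r (14.2%) were among the steadier members there. In the kidney Igfbp2 varied most, by 99.4%, more than 98.9% of tested genes, and Igfbp7 least, by 9.95%, beside a median of 17.7%. The highest kidney exceeded the lowest by 70.9-fold for Igfbp2 and by 1.41-fold for Igfbp7.

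The aortic comparisons ask whether HFD, loss of EGFR in smooth muscle, or both together change the axis in the vessel. With adjustment over all 14796 genes, 0 of the 9 members tested passed in any of the 7 comparisons, by edgeR and by DESeq2 alike. By the adjusted edgeR test the background was low as well. For HFD against SFD 0% of genes passed in WT and 0% in KO, and 0% passed for the difference between these diet effects. For KO against WT 0.0811% passed on SFD and 0.0811% on HFD. Averaged over the other factor, 3.79% passed for diet and 0.196% for genotype. DESeq2 called 666, 8 and 2 genes in the 3 comparisons in which edgeR called 0. At an unadjusted p under 0.05, 16.7% of genes and 4 of 9 members passed for diet in WT, and 7.47% and 1 member for diet in KO. The genotype comparisons gave 6.14% and 2 members on SFD, and 5.04% and 0 members on HFD. For the difference between the diet effects 4.1% and 1 member passed, for the mean diet effect 18.5% and 3 members, and for the mean genotype effect 6.9% and 0 members. The values below are therefore levels of genes that did not pass the adjusted test. Where groups are said to lie apart, the share of all tested genes that did so is not given. Such a statement describes the values only.

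**Figure D2:**
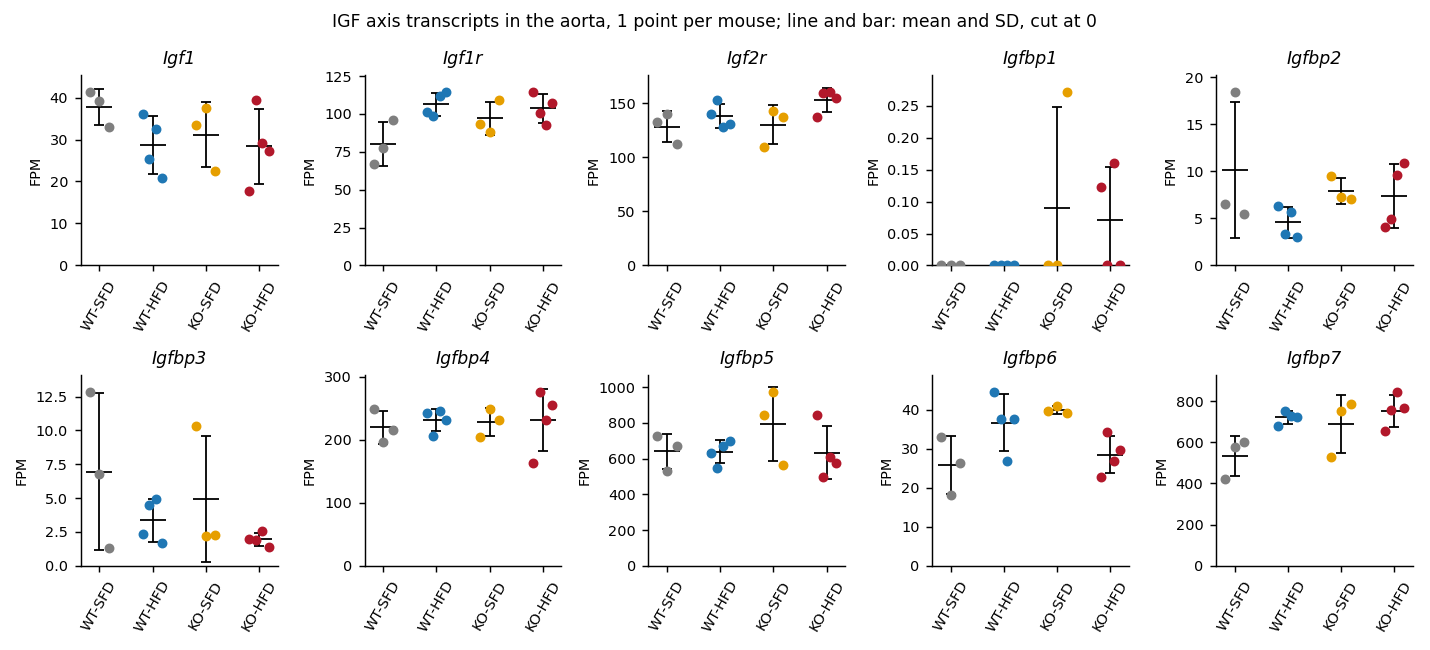
Level of each gene in the aorta in FPM (linear axes from 0, 1 scale per gene), 1 point per mouse in WT-SFD (n = 3), WT-HFD (n = 4), KO-SFD (n = 3) and KO-HFD (n = 4); the line is the mean and the bar the SD, cut at 0. Igf1r and Igfbp7 lay higher in every WT-HFD than in every WT-SFD aorta, and Igfbp6 stood highest in KO-SFD and WT-HFD.

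Igf1 in the aorta was 41.4, 39.1 and 33.1 FPM in WT-SFD, 36.0, 25.4, 32.4 and 20.8 FPM in WT-HFD, 33.4, 37.6 and 22.5 FPM in KO-SFD, and 17.7, 39.4, 29.1 and 27.2 FPM in KO-HFD. The groups overlapped. The mean diet effect was -0.26 on the log2 scale (SE 0.17), which did not pass at an unadjusted p under 0.05.

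Igf1r, the signalling receptor, was 66.9, 77.4 and 96.0 FPM in WT-SFD and 101, 98.7, 112 and 114 FPM in WT-HFD. The KO values were 93.6, 88.0 and 109.5 FPM on SFD and 115, 100.5, 92.6 and 107 FPM on HFD. All 4 WT-HFD aortae exceeded all 3 WT-SFD aortae, by 0.41 on the log2 scale (SE 0.13, adjusted p = 0.117 by edgeR), while the KO groups overlapped. The lowest values were those of WT-SFD-1309 and then WT-SFD-1310, which had the most adipocyte marker RNA. The WT difference was 0.26 with the adipocyte marker mean as a covariate and 0.15 without the 4 aortae (adjusted p = 0.914). The latter fit leaves 1 aorta per genotype on SFD, WT-SFD-1445 and KO-SFD-1507, assumed to vary like the other groups, so it sets 1 mouse against 4 within a genotype and shows little of how a value depends on fat RNA. Without mouse WT-SFD-1445, the WT-SFD aorta that lacked the excess, it was 0.56 and passed (adjusted p = 0.0099 by edgeR). Across the 14 aortae Igf1r ran with the smooth muscle marker mean (r = 0.83, rho = 0.75, r = 0.83 without the 2 libraries farthest from the median), a description on log2 CPM, as for all correlations here, over libraries that share groups.

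Igf2r, the receptor that clears IGF-2, was steady. It was 133, 140.3 and 112.5 FPM in WT-SFD, 141, 153, 128.5 and 131 FPM in WT-HFD, 110, 143 and 138 FPM in KO-SFD, and 138, 160.1, 161 and 155 FPM in KO-HFD. The groups overlapped.

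Igfbp7 also lay apart between the WT diets. It was 423, 576.5 and 602.5 FPM in WT-SFD and 680.3, 751.5, 729 and 723 FPM in WT-HFD, without overlap (log2 difference 0.43, SE 0.16, adjusted p = 0.170 by edgeR). KO aortae held 530.1, 753.5 and 787 FPM on SFD and 654, 755.5, 844 and 765 FPM on HFD, with overlap. The lowest WT aorta was WT-SFD-1309 and the lowest KO aorta KO-SFD-1319. The WT difference was 0.27 with the covariate and 0.26 without the 4 aortae, where WT-SFD is 1 mouse.

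Igfbp6 was the member whose diet values pointed in opposite directions in the genotypes. In WT it was 33.0, 18.2 and 26.4 FPM on SFD and 44.5, 37.7, 26.8 and 37.6 FPM on HFD. Among KO aortae it was 39.7, 41.0 and 39.2 FPM on SFD and 22.9, 34.2, 27.0 and 29.6 FPM on HFD. Every KO-SFD aorta thus lay above every KO-HFD and every WT-SFD aorta, while the WT diets overlapped. The diet difference was 0.51 in WT (SE 0.20, and 0.30 without WT-SFD-1310) and -0.49 in KO (SE 0.19), and the difference between them was -0.997 on the log2 scale (SE 0.28, adjusted p = 1.00 by edgeR). It was -0.999 with the adipocyte covariate and -0.94 without the 4 aortae, a fit with 1 mouse per genotype on SFD. It failed the adjusted test in each of these fits. The mean of the leucocyte markers (5 tested, Lyz2 the most abundant, sums of 78.3 to 191.8 FPM) was also higher in every KO-SFD aorta (4.09 to 4.68 log2 CPM) than in every WT-SFD aorta (3.29 to 3.35). Singly, Ptprc ran from 4.77 to 54.25 FPM and Cd79a from 0.58 to 7.75 FPM over the aortae. Cd68 ran from 3.86 to 11.8 FPM, Csf1r from 24.45 to 55.0 FPM and Lyz2 from 39.0 to 90.0 FPM. The list mean weighs them equally, and their values by group are not given here. This mean was highest within WT-HFD in WT-HFD-1442 (4.48) and within KO-HFD in KO-HFD-1503 (4.54), the aortae with the most Igfbp6 of their groups. Igfbp6 ran with it over the 14 aortae (r = 0.66, rho = 0.68, r = 0.69 without the 2 farthest), and its part in the Igfbp6 values was not tested.

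Igfbp2 was 6.55, 18.5 and 5.49 FPM in WT-SFD and 6.33, 3.32, 5.63 and 3.07 FPM in WT-HFD. KO aortae gave 9.51, 7.24 and 7.07 FPM on SFD and 4.04, 4.98, 9.60 and 10.9 FPM on HFD. The highest value came from mouse WT-SFD-1310, whose aorta also had the most cardiac muscle marker RNA (6.76 log2 CPM), and the part of the latter in the value was not tested. The WT diet difference was -1.16 (SE 0.43, adjusted p = 0.185 by edgeR). With the adipocyte covariate it was -0.76 (adjusted p = 0.754), and -0.25 without the 4 aortae (adjusted p = 0.963), where WT-SFD is 1 mouse. It rested on WT-SFD-1310, without which it was -0.38 (adjusted p = 0.760), while without WT-SFD-1445 it was -1.45 and passed (adjusted p = 0.0397 by edgeR).

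Igfbp3 was 12.8, 6.77 and 1.30 FPM in WT-SFD, 2.35, 4.52, 4.90 and 1.66 FPM in WT-HFD, 10.3, 2.23 and 2.27 FPM in KO-SFD, and 1.96, 1.88, 2.56 and 1.37 FPM in KO-HFD. Its 3 highest aortae were mice WT-SFD-1309, KO-SFD-1319 and WT-SFD-1310, the ones with the most adipocyte markers. The mean diet effect of -1.17 (SE 0.46, adjusted p = 0.181 by edgeR) turned to 0.46 with the adipocyte covariate and to 0.59 without the 4 aortae, with adjusted p of 0.932 and 0.901. Leaving out single aortae gave from -0.62 without KO-SFD-1319 (adjusted p = 0.597) to -1.40 without WT-SFD-1445, which passed (adjusted p = 0.0242 by edgeR). Igfbp3 ran with the endothelial marker mean (r = 0.87, rho = 0.80, r = 0.81 without the 2 farthest) and with the Schwann cell marker mean (r = 0.87, rho = 0.71, r = 0.71 without the 2 farthest). Within the endothelial list Kdr fell on HFD (-2.75, adjusted p = 0.0208 by edgeR), Emcn was at -1.36 (adjusted p = 0.0698), and the more abundant Pecam1 (0.06), Vwf (-0.01) and Tek (0.02) did not pass.

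Igfbp4 and Igfbp5 overlapped between all groups of aortae. Igfbp4 ran from 164 to 276 FPM and Igfbp5 from 498.5 to 973 FPM, and neither passed at an unadjusted p under 0.05 in any of the 7 comparisons.

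In the kidney, 2 binding proteins rose on HFD. Over both genotypes Igfbp3 was 1.35-fold and Igfbp4 1.52-fold higher on HFD, and in KO alone Igfbp3 was 1.496-fold higher. All 10 members were tested among 15034 genes. The adjusted test called 2 members for the mean diet effect, beside 4.48% of all genes, and 1 member for diet in KO, beside 2.3%. DESeq2 called the same numbers of members. By edgeR each call was lost in some fits without 1 kidney, and with the collecting duct or proximal tubule covariate, as given below. In the other comparisons 0 members passed by either tool, beside 0.911% of genes for diet in WT, 0.0133% for genotype on SFD, 0.00665% for genotype on HFD, 0% for the difference between diet effects (DESeq2 called 1 gene) and 0.0133% for the mean genotype effect. At an unadjusted p under 0.05 the members numbered 1 for diet in WT (7.9% of genes), 2 for diet in KO (15.8%) and 2 for the mean diet effect (17.9%). For genotype they numbered 0 on SFD (8.37%), 0 on HFD (1.65%) and 2 over both diets (5.69%), and 0 for the difference between diet effects (3.23%).

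**Figure D3:**
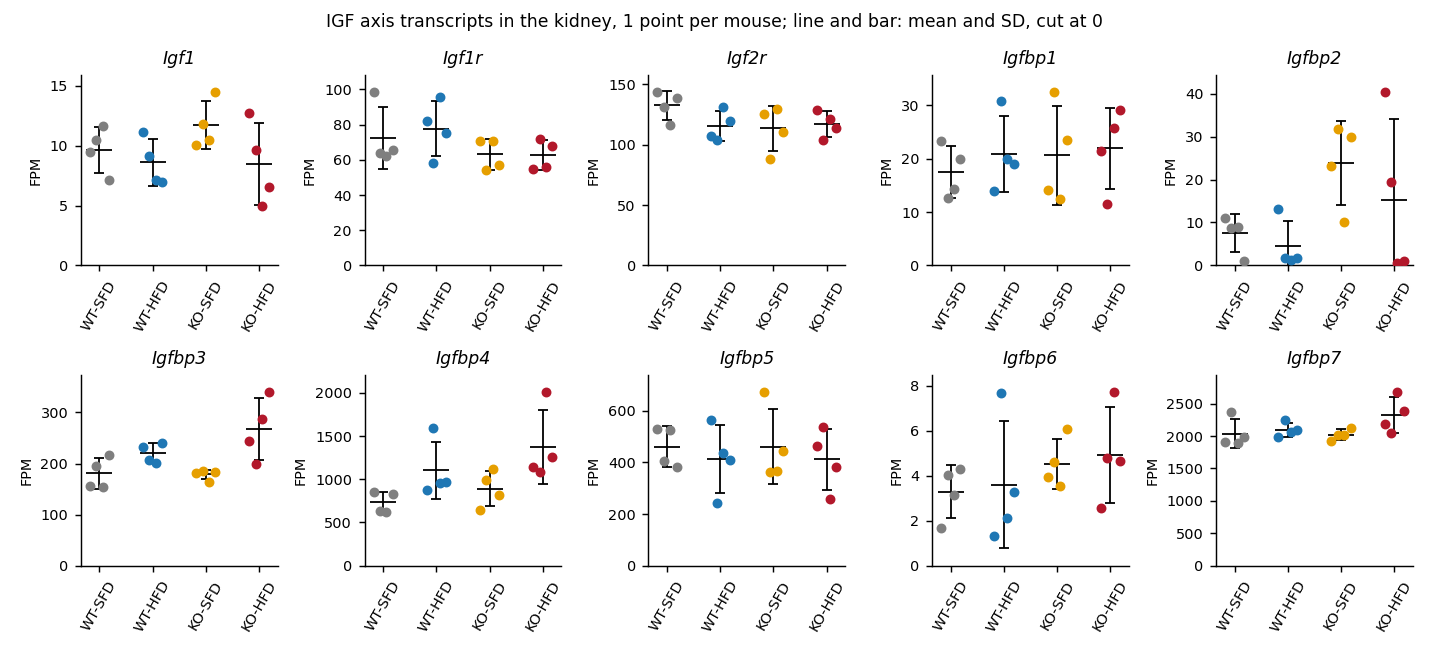
Level of each gene in the kidney in FPM (linear axes from 0, 1 scale per gene), 1 point per mouse in the 4 groups (n = 4 each); the line is the mean and the bar the SD, cut at 0. Every KO-HFD kidney lay above every KO-SFD kidney for Igfbp3, every WT-HFD kidney above every WT-SFD kidney for Igfbp4, and Igfbp2 ran from 0.57 to 40.4 FPM within KO-HFD alone.

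Igfbp3 was 156, 195.5, 155 and 216.5 FPM in WT-SFD and 231, 208, 200.3 and 241 FPM in WT-HFD. The KO kidneys gave 182, 185, 164 and 183 FPM on SFD and 243, 199, 287 and 339.6 FPM on HFD. The KO diets did not overlap and the WT diets did. In KO the log2 difference was 0.58 (SE 0.15, adjusted p = 0.0479 by edgeR), in WT 0.29 (SE 0.15, adjusted p = 0.696) and over both 0.43 (SE 0.10, adjusted p = 0.0231). The difference between the 2 diet effects, 0.30 (SE 0.21), did not pass (adjusted p = 1.00 by edgeR), so a larger rise in KO was not shown. The KO call lay close to the threshold and was lost without any 1 of 11 of the 16 kidneys (0.44 to 0.62 in those fits, adjusted p = 0.0508 to 0.174).

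Igfbp4 was 848, 639, 622 and 829 FPM in WT-SFD and 879, 1597, 958 and 973 FPM in WT-HFD. KO kidneys held 644, 993, 1115 and 819 FPM on SFD and 1142, 1088, 2007 and 1255 FPM on HFD. All WT-HFD kidneys exceeded all WT-SFD kidneys, whereas 1 KO-SFD kidney exceeded the lowest KO-HFD kidney. The log2 difference was 0.59 in WT (SE 0.23, adjusted p = 0.489 by edgeR), 0.62 in KO (SE 0.23, adjusted p = 0.197) and 0.60 over both (SE 0.16, adjusted p = 0.0453). The highest kidney of each genotype, mice WT-HFD-1613 and KO-HFD-1520, was on HFD. Leaving out 1 kidney at a time gave 0.49 to 0.67 over both genotypes, and the call was lost in 12 of the 16 cases (adjusted p = 0.0524 to 0.0887 in those). Without WT-HFD-1613 the WT difference was 0.36, and without KO-HFD-1520 the KO difference was 0.39. Without any 1 of mice WT-SFD-1309, WT-SFD-1694, WT-HFD-1642 and KO-HFD-1558 neither Igfbp3 nor Igfbp4 passed over both genotypes. Igfbp3 over both genotypes was 0.365 to 0.487 when 1 kidney was left out. Its call was lost in those 4 cases only (adjusted p up to 0.0547 by edgeR).

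**Figure D4:**
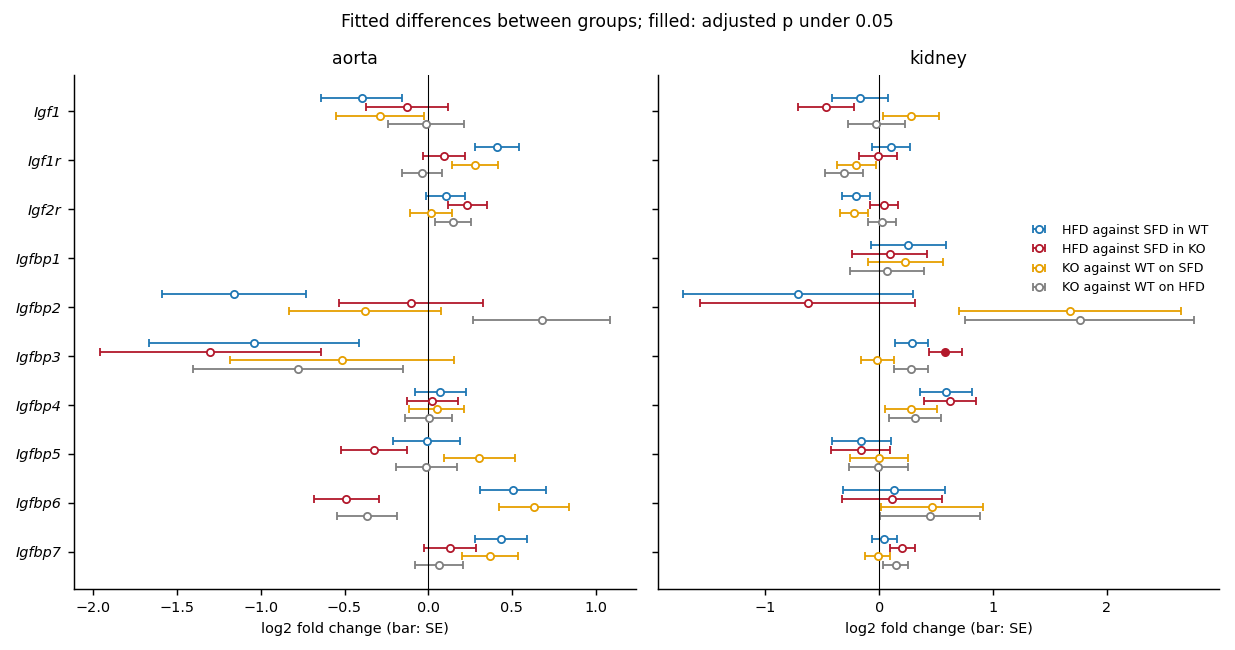
Log2 fold change of each gene (points, with bars for the SE) in the aorta and kidney, for the diet difference within each genotype and for KO against WT on each diet, from the edgeR fits; filled points had an adjusted p under 0.05 and Igfbp1 was not tested in the aorta. The filled point is kidney Igfbp3 for diet in KO (0.58), and the bars of kidney Igfbp2 are the widest.

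Means of some nephron segment markers also differed between the diet groups. The mean of the 5 proximal tubule markers was 10.1 log2 CPM in WT-SFD, 10.3 in WT-HFD, 9.88 in KO-SFD and 10.3 in KO-HFD, with sums of 8764 to 15510 FPM, most of it Slc34a1. Within that list Slc5a2, the glucose carrier SGLT2, itself rose on HFD by 1.37 on the log2 scale (adjusted p = 2.08e-05 by edgeR), while Slc34a1 (0.15), Lrp2 (0.03), Slc22a6 (-0.07) and Cubn (-0.01) did not pass. The mean of the 3 collecting duct markers was 7.59 in WT-SFD, 7.21 in WT-HFD, 8.08 in KO-SFD and 7.41 in KO-HFD, with sums of 587 to 1691 FPM, most of it Aqp2. For diet over both genotypes Aqp2 (-0.55, adjusted p = 0.246 by edgeR), Aqp3 (-0.20, adjusted p = 0.197) and Fxyd4 (-0.70, adjusted p = 0.253) did not pass. The intercalated cell mean was 5.38 to 5.89 in WT-SFD and 5.14 to 5.37 in WT-HFD, without overlap. It overlapped between KO-SFD (5.25 to 5.67) and KO-HFD (5.20 to 5.41), and none of its 4 markers passed for diet. The thick ascending limb mean was 8.74 to 8.84 in KO-SFD and 7.64 to 8.45 in KO-HFD, without overlap, while WT-SFD (8.41 to 8.66) and WT-HFD (8.27 to 8.55) overlapped. Of its 3 markers Umod fell on HFD over both genotypes (-0.41, adjusted p = 0.0494 by edgeR), and Slc12a1 (-0.49, adjusted p = 0.222) and Cldn16 (-0.23, adjusted p = 0.275) did not pass. Of the 3 distal convoluted tubule genes, Pvalb (1.23, adjusted p = 0.000427) and Slc12a3 (0.40, adjusted p = 0.0308) rose, while Calb1 did not pass (-0.25, adjusted p = 0.495). Higher on HFD too were the hepatocyte genes Alb (0.78, adjusted p = 0.0113) and Fgb (2.38, adjusted p = 0.00107), which were low (4.40 to 13.1 FPM and 0.20 to 4.77 FPM), while Apob, the most abundant gene of that list (median 154 FPM), did not pass (0.38, adjusted p = 0.145). Of the 8 adipocyte genes, Lep (3.995, adjusted p = 0.000911) and Pck1, which the proximal tubule also makes (1.00, adjusted p = 0.0469), rose, and the other 6 did not pass. The adipocyte mean overlapped between all groups, and the brown adipocyte mean ran from -0.93 to 4.98 log2 CPM. The collecting duct and proximal tubule means were fitted as covariates, and the part of the other lists in the Igfbp3 and Igfbp4 values was not tested. Igfbp3 ran against the thick ascending limb mean (r = -0.81, rho = -0.84, r = -0.82 without the 2 farthest). With the collecting duct mean, the mean diet effect was 0.26 for Igfbp3 (adjusted p = 0.246 by edgeR) and 0.39 for Igfbp4 (adjusted p = 0.316). With the proximal tubule mean it was 0.27 (adjusted p = 0.366) and 0.21 (adjusted p = 0.650). Igfbp3 in KO was 0.35 and 0.32 in these fits (adjusted p = 0.370 and 0.593). Neither call was kept in them, and a diet response of the markers cannot be told apart from a different share of tubule segments in the piece sequenced.

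Igfbp2 gave the widest spread of the kidney. It was 11.1, 8.80, 8.98 and 0.99 FPM in WT-SFD and 13.2, 1.68, 1.36 and 1.67 FPM in WT-HFD. In KO it was 23.2, 31.9, 10.2 and 29.9 FPM on SFD and 40.4, 19.3, 0.57 and 1.01 FPM on HFD. Values near 1 FPM and values above 8 FPM occurred in 3 of the 4 groups. The 4 highest were all KO kidneys, yet the genotypes overlapped, and the mean genotype difference of 1.72 (SE 0.70) did not pass (adjusted p = 0.851 by edgeR). Igfbp2 followed the collecting duct mean over the 16 kidneys (r = 0.95, rho = 0.90, r = 0.93 without the 2 farthest, r = 0.94 for deviations from group means). With that mean as a covariate the genotype difference was -0.16 (adjusted p = 0.980).

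**Figure D5:**
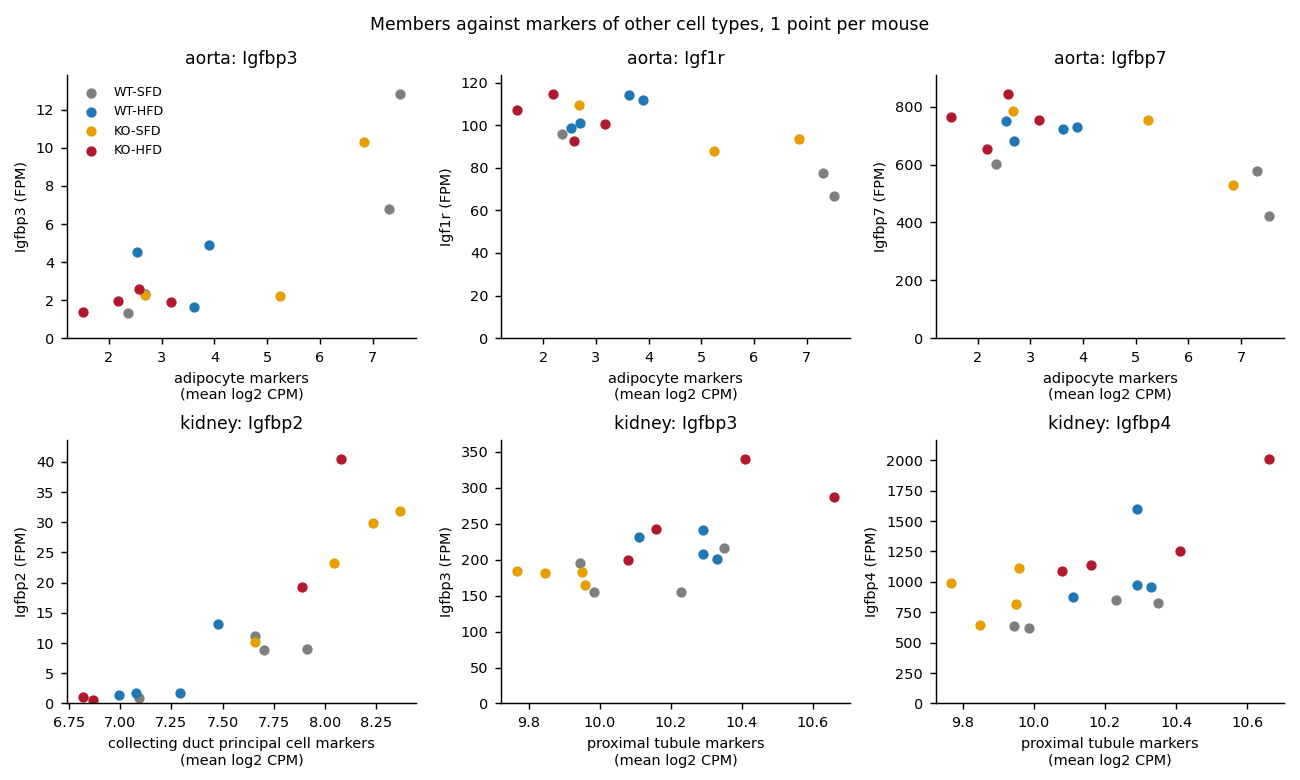
Level in FPM (vertical axes) against the mean log2 CPM of a marker list (horizontal axes), 1 point per mouse, coloured by group, for aortic Igfbp3, Igf1r and Igfbp7 with adipocyte markers, kidney Igfbp2 with collecting duct markers, and kidney Igfbp3 and Igfbp4 with proximal tubule markers. Kidney Igfbp2 was higher where the collecting duct mean was higher (r = 0.95 on log2 values, n = 16), and the 3 aortae with the highest adipocyte mean held the 3 highest Igfbp3 values.

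Igf1 in the kidney was low and ran with Igfbp2. It was 9.43, 10.4, 11.7 and 7.13 FPM in WT-SFD, 11.2, 9.13, 7.16 and 6.98 FPM in WT-HFD, 10.1, 11.8, 10.5 and 14.5 FPM in KO-SFD, and 12.7, 9.60, 4.94 and 6.54 FPM in KO-HFD. The groups overlapped and no comparison passed. Igf1 followed the collecting duct mean (r = 0.90, rho = 0.89, r = 0.87 without the 2 farthest) and Igfbp2 (r = 0.90, rho = 0.86, r = 0.87 without the 2 farthest).

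The receptors were close between groups of kidneys. Igf1r ran from 54.3 to 98.6 FPM, and its mean genotype difference was -0.26 (SE 0.12, adjusted p = 0.851 by edgeR), or -0.16 without WT-SFD-1309, the highest kidney. Igf2r ran from 88 to 144 FPM with no comparison under an unadjusted p of 0.05.

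Of the other binding proteins, Igfbp1 ran from 11.6 to 32.6 FPM, Igfbp5 from 244 to 672 FPM, Igfbp6 from 1.34 to 7.72 FPM and Igfbp7 from 1893 to 2677 FPM. None of them passed at an unadjusted p under 0.05 in any of the 7 kidney comparisons. Igfbp5 ran with the endothelial marker mean (r = 0.81, rho = 0.85, r = 0.80 without the 2 farthest). Igfbp4 and Igfbp5 ran against each other (r = -0.75), less so without the 2 farthest libraries (r = -0.44).

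The wider pathway was read from 35 listed genes, namely the second ligand Igf2, insulin-type receptors, proteases and inhibitors that act on binding proteins, growth hormone signalling, intracellular signal proteins, IGF2 mRNA binding proteins and genes with an IGFBP-like domain. In the aorta 31 were tested. For the mean diet effect 0 of them rose and 1 fell, and the median log2 difference was 0.10 beside -0.00 for all tested genes. That is 1 of 31, near the 3.79% of all genes. In the kidney 32 were tested, 0 rose and 1 fell, with a median of 0.10 beside -0.01, and 1 of 32 is near the 4.48% of all genes.

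The gene that fell in the aorta was Ghr, the growth hormone receptor. It was 133, 122 and 70.2 FPM in WT-SFD and 64.0, 65.0, 70.1 and 70.6 FPM in WT-HFD. In KO it was 107, 82.1 and 70.2 FPM on SFD and 72.5, 65.0, 59.0 and 49.9 FPM on HFD. The 4 highest values were the 4 adipocyte-rich aortae, while mice WT-SFD-1445 and KO-SFD-1507, on SFD without the excess, lay within the HFD range. The mean diet effect of -0.59 (SE 0.14, adjusted p = 0.0316 by edgeR) was -0.15 with the adipocyte covariate (adjusted p = 0.903) and -0.12 without the 4 aortae (adjusted p = 0.926). The call was lost when any 1 of 12 of the 14 aortae was left out (-0.62 to -0.49 in those fits, adjusted p = 0.0529 to 0.120).

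The gene that fell in the kidney was Igf2bp1, an RNA-binding protein named for its binding to Igf2 mRNA and best known from fetal tissues. It was 7.21, 5.91, 5.76 and 5.92 FPM in WT-SFD and 1.57, 0.82, 1.76 and 1.43 FPM in WT-HFD. In KO it was 9.26, 8.35, 8.79 and 5.68 FPM on SFD and 2.77, 2.16, 1.27 and 1.61 FPM on HFD. Every HFD kidney lay below every SFD kidney of either genotype. The log2 difference was -2.15 in WT (SE 0.25, adjusted p = 0.000515 by edgeR) and -2.03 in KO (SE 0.25, adjusted p = 0.000377). Over both genotypes it was -2.09 (adjusted p = 2.67e-06), and the call held with each covariate and without any 1 library. In the aorta Igf2bp1 was at 0.12 ± 0.12 FPM (SD, n = 14) and did not pass the filter.

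Igf2, the fetal ligand, was 34.4 ± 16.6 FPM in the aorta and 2.04 ± 0.52 FPM in the kidney, and did not pass in either for diet (log2 difference -0.60, adjusted p = 0.237, and -0.19, adjusted p = 0.584, by edgeR). Insr, the insulin receptor, was 173 ± 18.6 FPM in the aorta with a mean diet effect of -0.20 (adjusted p = 0.189 by edgeR). In the kidney the insulin receptor-related gene Insrr was the higher of the pair per length (7.31 FPM per kb), with a mean diet effect of -0.03 (adjusted p = 0.942 by edgeR). Htra1, a secreted protease that cleaves binding proteins, was the most abundant protease of the list per length in both tissues, at 85.0 FPM per kb in the aorta and 55.8 in the kidney. Its mean diet effect was 0.35 in the aorta (adjusted p = 0.0571 by edgeR) and 0.20 in the kidney (adjusted p = 0.326). Ghr was the most abundant growth hormone gene of the kidney, at 76.0 FPM per kb, and its mean diet effect there was -0.30 (SE 0.08, adjusted p = 0.0514 by edgeR). Akt1, a kinase downstream of the receptors, led the intracellular genes per length at 20.7 FPM per kb in the aorta and 31.5 in the kidney, with mean diet effects of 0.16 (adjusted p = 0.195 by edgeR) and -0.05 (adjusted p = 0.693). Among genes with an IGFBP-like domain the leaders per length were Ctgf in the aorta (133 FPM per kb, mean diet effect 0.43, adjusted p = 0.3503 by edgeR) and Crim1 in the kidney (17.6 FPM per kb, 0.09, adjusted p = 0.750). Igf2bp2 led its list in the aorta at 0.60 FPM per kb (mean diet effect 0.11, adjusted p = 0.767 by edgeR).

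The genes whose log2 levels ran most like a member's were named by the highest Pearson r over the libraries of a tissue. In the kidney, over 16 libraries, Igfbp2 ran most like Nbl1 (r = 0.98) and Apcdd1 (r = 0.97), Igfbp4 like Tmem106a (r = 0.95) and Slc7a9 (r = 0.90), and Igfbp3 like Col14a1 (r = 0.87) and Ttr (r = 0.86). Slc7a9 is an amino acid carrier of the proximal tubule. In the aorta, over 14 libraries, Igfbp7 ran most like Col18a1 (r = 0.95) and Optc (r = 0.94), Igf1r like Slc1a4 (r = 0.93) and Pcdh7 (r = 0.92), and Igfbp6 like Sept1 (r = 0.90) and Twist2 (r = 0.82). Each had 1 of the 2 highest r with its member among the tested genes, predicted genes (Gm or Rik names) left out. Being picked in this way by itself makes these r high, and no test was made of them.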

How the data were processed

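RNA of mouse aorta (14 libraries) and kidney (16 libraries) was analysed from raw counts per gene, deposited by the authors as 1 table per tissue. Per the labels and the study's methods, reads were aligned to GRCm38/mm10 with TopHat and counted with featureCounts. The paper names cutadapt for trimming the aortic reads and says that a company trimmed the kidney reads. The strand setting and the treatment of multi-mapping reads are not given in the sources used here. Counts were analysed with R 4.3.3 and edgeR 4.0.16 (filterByExpr within groups, TMM factors, 1 coefficient per genotype and diet group, quasi-likelihood test, Benjamini-Hochberg over all tested genes, limit 0.05), in each tissue alone, with figures from Python 3.11.15 and matplotlib 3.10.9. The filter kept 14796 aortic and 15034 renal genes. DESeq2 1.42.0, RLE factors, no filter, library totals, the FDR limit of 0.001, fits of the 2 compared groups alone, an adipocyte covariate and leaving out each library were alternatives. A further 3 were chosen after seeing the data, namely leaving out 4 aortae and 2 kidney marker covariates. Log2 CPM used a prior count of 2. Gene structure was taken from GENCODE vM21 (40254 of 41128 identifiers matched) and promoters from RefSeq (10 of 10 members). Named genes were all 10 members, called genes of 7 pathway lists, the most abundant gene by level per length of a list with none called in a tissue, and the 2 genes most like each member. Members and lists were chosen with earlier results of these data known. No gene on chromosome 9 or X had a count, and genes there were not analysed here. Cdh5 and Acta1 likewise had no count in any library of either tissue, so the endothelial mean was taken without Cdh5. Replicates were separate mice.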

Additional observations from a re-analysis of the deposited data

Results flagged for a closer look

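In 58 sets of 1 member in 1 group of 4 libraries (18 in the aorta, 40 in the kidney), 4 kidneys stood far from the rest of their group, where chance marks about 1 set in 20. Igf1r was 98.6 FPM in mouse WT-SFD-1309, against 62.2 to 65.5 FPM in the other 3. Igfbp2 was 13.2 FPM in mouse WT-HFD-1535, against 1.36 to 1.68 FPM. Without that mouse the mean genotype difference of Igfbp2 was 2.49 on the log2 scale and without mouse KO-HFD-1437 it was 1.17. Igfbp3 was 164 FPM in mouse KO-SFD-1319, against 182 to 185 FPM, a group that was otherwise tight. Igfbp4 was 1597 FPM in mouse WT-HFD-1613, against 879 to 973 FPM.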

How the results depend on the processing

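Of the counts of members called under the alternatives other than leaving out 1 library, 99 stayed within 1.5 times of the reported count and 7 did not. Every reported count was 0 except those for diet in KO and for the mean diet effect in the kidney. Most of the 99 were therefore a 0 that stayed 0, which a stricter limit could not have changed. The 7 all belonged to these kidney comparisons and fell to 0. For diet in the kidney of KO the count of 1 became 0 at an FDR limit of 0.001, with only the 2 groups fitted (Igfbp3 0.57, adjusted p = 0.114 by edgeR), and with the collecting duct or proximal tubule covariate. For the mean diet effect in the kidney the count of 2 became 0 at an FDR limit of 0.001 and with either covariate. Leaving out 1 library gave 0 to 1 for diet in KO kidney and 0 to 2 for the mean diet effect in kidney. In the aorta it gave 0 to 2 for diet in WT and 0 to 2 for the mean diet effect, with Igf1r and Igfbp2 called in WT and Igf1r (0.33) and Igfbp3 (-1.40) called over both genotypes without mouse WT-SFD-1445. It left the count at 0 in the other comparisons. Values turned in direction in 4 cases: aortic Igfbp3 for the mean diet effect with the adipocyte covariate (0.46) and without the 4 adipocyte-rich aortae (0.59), kidney Igfbp4 for diet in KO with the proximal tubule covariate (-0.011), and kidney Igfbp2 for the mean genotype effect with the collecting duct covariate (-0.16). The cause was not tested. Using library totals instead of TMM moved the median of all genes by 0.11 for diet in WT, -0.11 for diet in KO, 0.29 for genotype on SFD, -0.22 for the difference between diet effects and 0.18 for the mean genotype effect in the aorta. No paired analysis was possible because mouse numbers are not shared between groups of a tissue. With 3 or 4 libraries per group and aortic depth below that of the kidney, low genes such as Igfbp1 and Igfbp3 in the aorta rest on few counts.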

Other observations

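The remaining members also had genes that ran with them, given as values with no test. In the kidney (16 libraries) these were Rhof (r = 0.92) and Wnt11 (r = 0.91) for Igf1, Fgd4 (r = 0.93) and Cep68 (r = 0.92) for Igf1r, March8 (r = 0.91) and Cubn (r = 0.91) for Igf2r, and Tbcd (r = 0.85) and Ogg1 (r = 0.84) for Igfbp1. Igfbp5 ran with Ermp1 (r = 0.93) and Twsg1 (r = 0.93), Igfbp6 with Coa4 (r = 0.86) and Dynlt1.ps1 (r = 0.86), and Igfbp7 with Ftl1 and Ftl2 (r = 0.92 and 0.92), which are near-identical ferritin light chain genes. In the aorta (14 libraries) they were Penk (r = 0.84) and Erlin2 (r = 0.83) for Igf1, Isg15 (r = 0.91) and Gne (r = 0.90) for Igf2r, Eif3b (r = 0.88) and Apobec2 (r = 0.87) for Igfbp2, Nadk (r = 0.95) and Ppip5k1 (r = 0.94) for Igfbp3, Esm1 (r = 0.82) and Prmt6 (r = 0.82) for Igfbp4, and Prune (r = 0.85) and Pde1a (r = 0.84) for Igfbp5.

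For the 3 mice with both tissues the values of the separately normalised tables were as follows. Igfbp3 was 12.8 FPM in the aorta and 156 FPM in the kidney of mouse WT-SFD-1309, 10.3 and 164 FPM in mouse KO-SFD-1319, and 2.56 and 199 FPM in mouse KO-HFD-1504. Igfbp2 was 6.55 and 11.1 FPM in mouse WT-SFD-1309, 9.51 and 10.2 FPM in mouse KO-SFD-1319, and 9.60 and 19.3 FPM in mouse KO-HFD-1504.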
